A study of Arabidopsis thaliana with 6 samples.

Results

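The 10 genes described here are transcripts that abscisic acid or drought is known to induce in Arabidopsis thaliana. They are NCED3, ABF3, RD29B, RAB18, LEA4-5, RD20, RD22, ERD7, P5CS1 and GOLS1, taken by locus identifier from the 33602 loci of the count tables. No measured value enters the rule, but the genes were chosen with earlier results of these data known. All 10 had reads in every plant. 9 of them passed the filter on low counts and were among the 16928 genes tested, and LEA4-5 did not pass. Transcript levels were compared between 3 msh1 memory plants, numbered 31, 32 and 33, and 3 wild-type plants, numbered 22, 23 and 24, all of the Columbia-0 accession and each read as 1 library. As background, the MSH1 gene encodes a MutS homologue of organelles, and a memory line descends from plants with MSH1 silenced by a transgene that has since been lost. The labels call the line isogenic with wild type and name no other allele or agent. All plants were grown at 22 °C, with no drought or hormone treatment in the labels, and were frozen whole at early bolting.

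Abscisic acid is the hormone with which a plant answers drying. When leaves lose water, 9-cis-epoxycarotenoid dioxygenases such as NCED3 cleave a carotenoid precursor and so set the rate of its synthesis. The hormone binds PYR/PYL receptors, which then block clade A PP2C phosphatases, and SnRK2 kinases freed from these phosphatases activate bZIP factors such as ABF3. ABF factors bind the abscisic acid response element (ABRE, core ACGTG) before genes such as RD29B and RAB18, while DREB factors bind the dehydration response element (DRE, core CCGAC) without needing the hormone. Among the induced products are hydrophilic LEA proteins and dehydrins, enzymes that make proline and galactinol, and proteins of lipid droplets and cell walls.

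Promoters are shown first for NCED3, ERD7 and RD20, the tested members whose groups do not overlap, and for RD29B and RAB18, the tested members that were highest in memory plant 31. Each sequence is the 250 bases before the gene start in the RefSeq annotation of TAIR10.1, read 5′ to 3′ on the gene's own strand. Capitals mark the ABRE core ACGTG and the DRE core CCGAC on either strand, and where the core is part of the palindrome CACGTG all 6 letters of it are capitals. RD29A, the gene next to RD29B, is shown beside it because the pair differ in these letters. The windows of RD29B and RD29A are chr5:21236771-21237020 and chr5:21240467-21240716, both on the plus strand. Those of the other genes shown are on the minus strand. They are chr5:26519448-26519697 for RAB18, chr2:14146556-14146805 for RD20, chr2:7757930-7758179 for ERD7 and chr3:4834016-4834265 for NCED3.
RD29B: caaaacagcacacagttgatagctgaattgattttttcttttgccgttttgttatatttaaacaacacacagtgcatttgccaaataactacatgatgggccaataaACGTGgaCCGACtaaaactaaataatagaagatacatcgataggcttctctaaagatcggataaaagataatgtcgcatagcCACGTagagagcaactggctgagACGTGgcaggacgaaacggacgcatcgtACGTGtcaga
RD29A: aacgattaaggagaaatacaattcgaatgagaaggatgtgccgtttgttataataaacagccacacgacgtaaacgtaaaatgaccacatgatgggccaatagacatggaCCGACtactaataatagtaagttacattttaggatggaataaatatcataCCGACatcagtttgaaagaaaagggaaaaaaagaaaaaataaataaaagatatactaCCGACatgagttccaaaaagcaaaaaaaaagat
RAB18: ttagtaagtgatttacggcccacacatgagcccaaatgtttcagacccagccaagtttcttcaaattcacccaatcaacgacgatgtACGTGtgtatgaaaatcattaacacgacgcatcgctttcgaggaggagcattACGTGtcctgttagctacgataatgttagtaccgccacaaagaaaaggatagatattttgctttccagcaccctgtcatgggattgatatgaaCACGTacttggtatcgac
RD20: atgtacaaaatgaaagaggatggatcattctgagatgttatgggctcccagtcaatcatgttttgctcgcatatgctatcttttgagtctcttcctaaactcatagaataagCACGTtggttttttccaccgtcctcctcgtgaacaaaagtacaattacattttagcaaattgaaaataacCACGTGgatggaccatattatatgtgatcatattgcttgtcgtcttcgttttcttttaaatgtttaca
ERD7: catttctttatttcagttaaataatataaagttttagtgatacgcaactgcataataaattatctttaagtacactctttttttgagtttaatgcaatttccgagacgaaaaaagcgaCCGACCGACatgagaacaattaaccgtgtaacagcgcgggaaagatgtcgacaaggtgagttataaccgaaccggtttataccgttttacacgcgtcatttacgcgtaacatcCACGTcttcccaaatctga
NCED3: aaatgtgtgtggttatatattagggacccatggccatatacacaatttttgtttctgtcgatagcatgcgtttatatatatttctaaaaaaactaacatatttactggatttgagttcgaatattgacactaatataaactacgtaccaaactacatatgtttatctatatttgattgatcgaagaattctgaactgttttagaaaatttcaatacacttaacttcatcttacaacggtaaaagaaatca

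Of the 10 members, 8 held the ABRE core in these 250 bases, where 23.1% of 26711 nuclear protein-coding genes hold it. 4 members held it at 2 or more places, which 5.07% of all these promoters do. RD29B had 4 places, RAB18 and LEA4-5 had 3 each, RD20 had 2, and RD22, ABF3, ERD7 and GOLS1 had 1 each, with a palindrome counted once. The letters were not found in the windows of P5CS1 and NCED3. The DRE core was found in 3 members, RD29B, LEA4-5 and ERD7, against 11.9% of all promoters, and in ERD7 it stood at 2 places that share 1 base. RD29A held 3 DRE cores and no ABRE core in the same window. The windows end at the annotated gene start, and bases after it were not searched, so a core there would be missed. These are matches of letters only, and the members are genes for which such elements have long been studied.

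**Figure D1:**
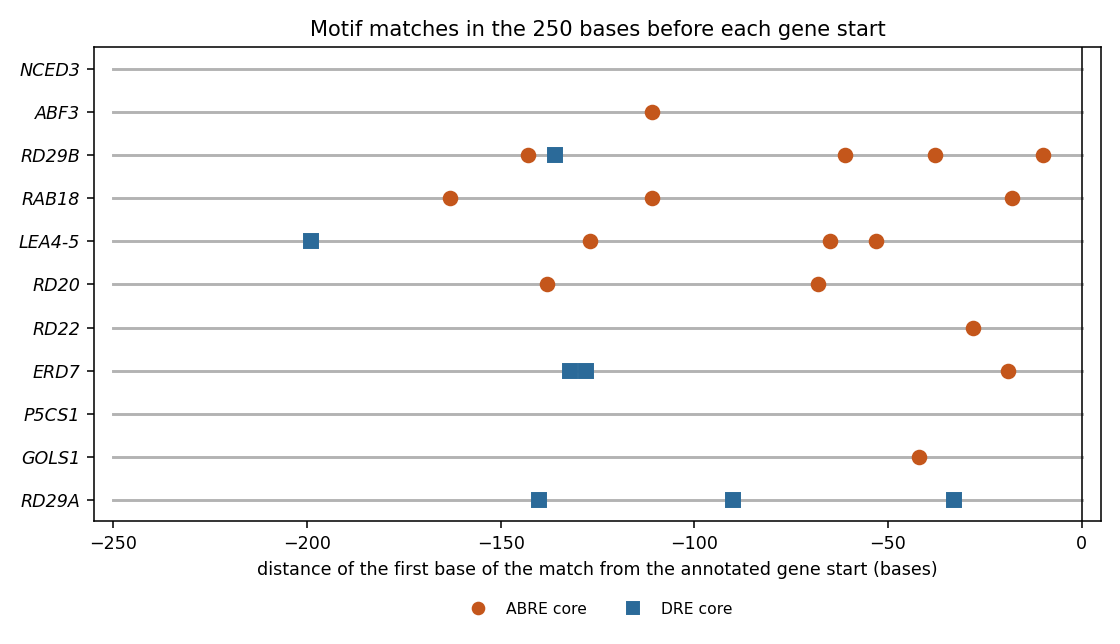
Position of each match to the ABRE core (circles) and the DRE core (squares) in the 250 bases before the annotated start of the 10 members and of RD29A; the x axis is the distance in bases of the first base of the match from the start. Within this window RD29B, RAB18 and LEA4-5 carry 3 or 4 ABRE cores each, RD29A carries DRE cores only, and P5CS1 and NCED3 carry neither.

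The libraries held 4060216 to 5053439 counts in memory plants and 5459895 to 5806617 counts in wild-type plants, so that 1 CPM, a count scaled to the size of its library, stood for 4.06 to 5.81 reads. CPM values here are further scaled by the trimmed mean of M values (TMM). On the first principal component of all tested genes wild-type plant 23 lay far from the rest, at 68.38, where the memory plants lay between -25.01 and -15.54 and the other wild-type plants at -7.17 and -4.46. Rapid touch and wound genes summed to 52.6, 52.7 and 58.7 CPM in memory plants 31, 32 and 33, against 164, 135 and 489.9 CPM in wild-type plants 22, 23 and 24. Leaf markers of the labelled whole plants (RBCS1A, LHCB1.3, LHCB2.1, RCA) summed to 38840 to 46520 CPM in memory plants and 43510 to 55780 CPM in wild-type plants. Of 12 seed markers 8 had no read in any plant, among them the storage albumin genes SESA1, SESA2, SESA3 and SESA4. The other 4 summed to 8 or 9 reads in each memory plant and 2 to 13 reads in each wild-type plant. Fewer cells of a type and less RNA per cell cannot be told apart in whole plants.

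NCED3 had lower values in the memory plants, but the difference did not pass the test. NCED3 (AT3G14440, chromosome 3, 4831286 to 4834015, minus strand, a gene of 1 exon) stood at 20.9, 9.45 and 13.4 CPM in memory plants 31, 32 and 33, against 25.4, 28.8 and 36.2 CPM in wild-type plants 22, 23 and 24. Every memory plant lay below every wild-type plant, and the lowest was plant 32. The means were 14.6 ± 5.84 CPM in memory plants and 30.1 ± 5.53 CPM in wild-type plants (SD, n = 3 each). The edgeR log2 fold change was -1.05 ± 0.261 (standard error, SE), and its adjusted p of 0.0774 did not pass the threshold of 0.05. Over the 6 fits that left out 1 plant the log2 fold change lay between -1.40 and -0.80, and in none of them did it pass. DESeq2 called it lower (adjusted p = 0.0194), as did edgeR with no filter on low counts (adjusted p = 0.0362).

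The other enzymes of abscisic acid synthesis gave no call. Of 9 further synthesis genes 5 were tested, and 4 of these had a fold change above 0 (median log2 value 0.13). NCED2, NCED5, NCED6 and NCED9, the other dioxygenase genes, were too low to test, with at most 1.57 CPM in a plant, so that NCED3 was the 1 gene of its family with levels that could be compared. ABA4, which acts in making the neoxanthin precursor, had 35.3, 34.6 and 30.1 CPM in memory plants 31, 32 and 33, against 24.6, 22.8 and 21.4 CPM in wild-type plants 22, 23 and 24, and every memory plant lay above every wild-type plant (edgeR log2 fold change 0.54 ± 0.151 SE, adjusted p = 0.11).

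Genes that break down, store or move the hormone gave no call among 9 tested, and 8 of them had a fold change below 0 (median log2 value -0.37). BGLU33, which encodes a beta-glucosidase, had the smallest p (23.1, 23.1 and 21.3 CPM in memory plants 31, 32 and 33, against 32.4, 30.2 and 23.7 CPM in wild-type plants 22, 23 and 24; edgeR adjusted p = 0.407). CYP707A3, a hydroxylase that inactivates the hormone, was outside the naming rule and stood at 4.27, 3.42 and 3.24 CPM in memory plants 31, 32 and 33, against 7.20, 2.71 and 52.5 CPM in wild-type plants 22, 23 and 24. Its high value was in plant 24, where NCED3 and the touch genes were also highest, and their part in these values was not tested.

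ABF3, the bZIP factor that binds the ABRE, did not differ detectably. ABF3 (AT4G34000, chromosome 4, 16295334 to 16298285, plus strand) had 45.3, 30.2 and 38.1 CPM in memory plants 31, 32 and 33, against 25.7, 51.2 and 29.4 CPM in wild-type plants 22, 23 and 24. The groups overlapped, and the highest value of all was in plant 23. The fold change was 1.07 with a 95% interval from 0.713 to 1.60 (edgeR adjusted p = 0.92), and without plant 23 it was 1.38 (adjusted p = 0.157). In the annotation ABF3 shares 24 exon bases with DJ1C on the opposite strand, and the kit does not mark strand.

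RD29B, RAB18 and LEA4-5 had their highest values in 1 memory plant, plant 31. RD29B (AT5G52300, chromosome 5, 21237021 to 21239531, plus strand), which encodes a hydrophilic protein of unknown biochemical role, stood at 23.9, 0.60 and 5.78 CPM in memory plants 31, 32 and 33, against 1.80, 1.93 and 3.13 CPM in wild-type plants 22, 23 and 24. These values rest on 112, 3 and 25 reads in the memory plants and 10, 10 and 18 reads in the wild-type plants. Plants 31 and 33 lay above every wild-type plant and plant 32 lay below every one. edgeR put the log2 fold change at 2.12 ± 1.16 SE (adjusted p = 0.546), and it was 0.44 without plant 31 and 2.69 without plant 32 (adjusted p = 0.938 and 0.127).

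RAB18 (AT5G66400, chromosome 5, 26518277 to 26519447, minus strand), a dehydrin widely used as a marker of abscisic acid response, had 72.2, 29.6 and 27.3 CPM in memory plants 31, 32 and 33, against 18.2, 30.2 and 21.75 CPM in wild-type plants 22, 23 and 24. Plants 32 and 33 lay within the range of the wild-type plants and plant 31 above it. The difference on the log2 scale was 0.88 ± 0.422 SE (edgeR adjusted p = 0.463), and without plant 31 it was 0.28 (adjusted p = 0.828). RAB18 shares 11 exon bases with PLP3b on the opposite strand, which had 11.2 to 24.2 CPM over all plants.

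LEA4-5 (AT5G06760, chromosome 5, 2089445 to 2090430, minus strand), a group 4 LEA protein gene, had 52, 12 and 4 reads in memory plants 31, 32 and 33, against 10, 3 and 10 reads in wild-type plants 22, 23 and 24. That is 11.1, 2.41 and 0.925 CPM in the memory plants and 1.80, 0.58 and 1.74 CPM in the wild-type plants. The value of plant 23 is 3 observed reads, a level that a count of 0 there would still allow. Plant 31 was again the highest, and plant 33 lay below 2 of the wild-type plants. LEA4-5 was not tested, and with no filter on low counts its log2 fold change was 1.78 (edgeR adjusted p = 0.533). In the same plant 31 the 12 seed markers had 8 reads together.

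RD20 was the 1 member whose values were higher in every memory plant than in any wild-type plant. RD20 (AT2G33380, chromosome 2, 14144831 to 14146555, minus strand), which encodes the caleosin CLO3, a calcium-binding peroxygenase of lipid droplets, had 94.0, 121 and 97.8 CPM in memory plants 31, 32 and 33, against 58.3, 82.2 and 66.65 CPM in wild-type plants 22, 23 and 24. The means were 104 ± 14.6 CPM in memory plants and 69.0 ± 12.1 CPM in wild-type plants (SD, n = 3 each). At a log2 fold change of 0.60 ± 0.164 SE it did not pass (edgeR adjusted p = 0.104). It passed without wild-type plant 23, at 0.74 (adjusted p = 0.00214), and with library totals in place of TMM (0.67, adjusted p = 0.0457). Of its 6 caleosin paralogs CLO4 alone could be tested, at 4.70, 7.24 and 3.24 CPM in memory plants 31, 32 and 33, against 5.22, 2.90 and 3.13 CPM in wild-type plants 22, 23 and 24.

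RD22, whose product carries a BURP domain, was the member with the highest level per exon length and showed no detectable difference. RD22 (AT5G25610, chromosome 5, 8914122 to 8916856, minus strand) stood at 704, 684 and 552 CPM in memory plants 31, 32 and 33, against 534, 784.5 and 633 CPM in wild-type plants 22, 23 and 24. The fold change was 0.994, with a 95% interval from 0.760 to 1.301 (edgeR adjusted p = 0.991). All 6 values lay within 1.47-fold of each other, and the group means were 647 ± 82.9 CPM in memory plants and 650.4 ± 126 CPM in wild-type plants (SD, n = 3 each). Of its 4 paralogs with a BURP domain 2 could be tested and none was called, and PG2 had the smaller p, with 168, 192 and 155 CPM in memory plants 31, 32 and 33, against 214, 174 and 238 CPM in wild-type plants 22, 23 and 24 (edgeR log2 fold change -0.28 ± 0.158 SE, adjusted p = 0.511).

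ERD7, a gene induced early in drying whose product binds lipids of cell membranes, had lower values in the memory plants. ERD7 (AT2G17840, chromosome 2, 7755605 to 7757929, minus strand) had 77.6, 60.95 and 53.6 CPM in memory plants 31, 32 and 33, against 93.9, 157 and 227 CPM in wild-type plants 22, 23 and 24. All memory plants lay below all wild-type plants. The log2 value of -1.31 ± 0.305 SE did not pass (edgeR adjusted p = 0.0857). It passed without wild-type plant 22 (-1.58, adjusted p = 0.00811), with DESeq2 (-1.32, adjusted p = 5.63e-05) and without robust estimation (adjusted p = 0.0427). Plant 24, with the highest touch and wound sum, also had the highest ERD7 value, and without it the log2 fold change was -0.97 (adjusted p = 0.075). None of the 3 tested ERD7 paralogs was called, and edgeR gave log2 fold changes of -0.35, 0.13 and 0.03 for AT4G35985, AT3G51250 and AT4G15450.

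P5CS1, which encodes the enzyme of the first committed step from glutamate to proline, did not differ detectably. P5CS1 (AT2G39800, chromosome 2, 16598072 to 16603319, minus strand) had 779.8, 646 and 705.5 CPM in memory plants 31, 32 and 33, against 492.5, 958 and 588 CPM in wild-type plants 22, 23 and 24. The memory plants lay inside the range of the wild-type plants, and plant 23 was the highest, as it was for ABF3 and RD22. The fold change was 1.046 with a 95% interval from 0.742 to 1.47 (edgeR adjusted p = 0.941), and without plant 23 it was 1.32 (adjusted p = 0.0791). P5CS1 shares 85 exon bases with AT2G39795 on the opposite strand, and reads may be shared with its close paralog P5CS2. None of 8 further proline genes passed, and 7 had negative fold changes, with P5CS2 at 156, 148 and 150.5 CPM in memory plants 31, 32 and 33, against 172, 229 and 187 CPM in wild-type plants 22, 23 and 24 (edgeR log2 fold change -0.37 ± 0.147 SE, adjusted p = 0.303).

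GOLS1, the galactinol synthase that opens raffinose synthesis, was highest in memory plant 32. GOLS1 (AT2G47180, chromosome 2, 19368798 to 19370478, minus strand) stood at 35.05, 72.4 and 24.97 CPM in memory plants 31, 32 and 33, against 24.65, 17.98 and 26.6 CPM in wild-type plants 22, 23 and 24. Plant 33 lay among the wild-type plants. GOLS1 did not pass (edgeR log2 fold change 0.94 ± 0.398 SE, adjusted p = 0.393), and without plant 32 it was 0.38 (adjusted p = 0.662). GOLS1 shares 43 exon bases with ARF1A1C on the opposite strand, a gene at 153 to 187 CPM over all plants.

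**Figure D2:**
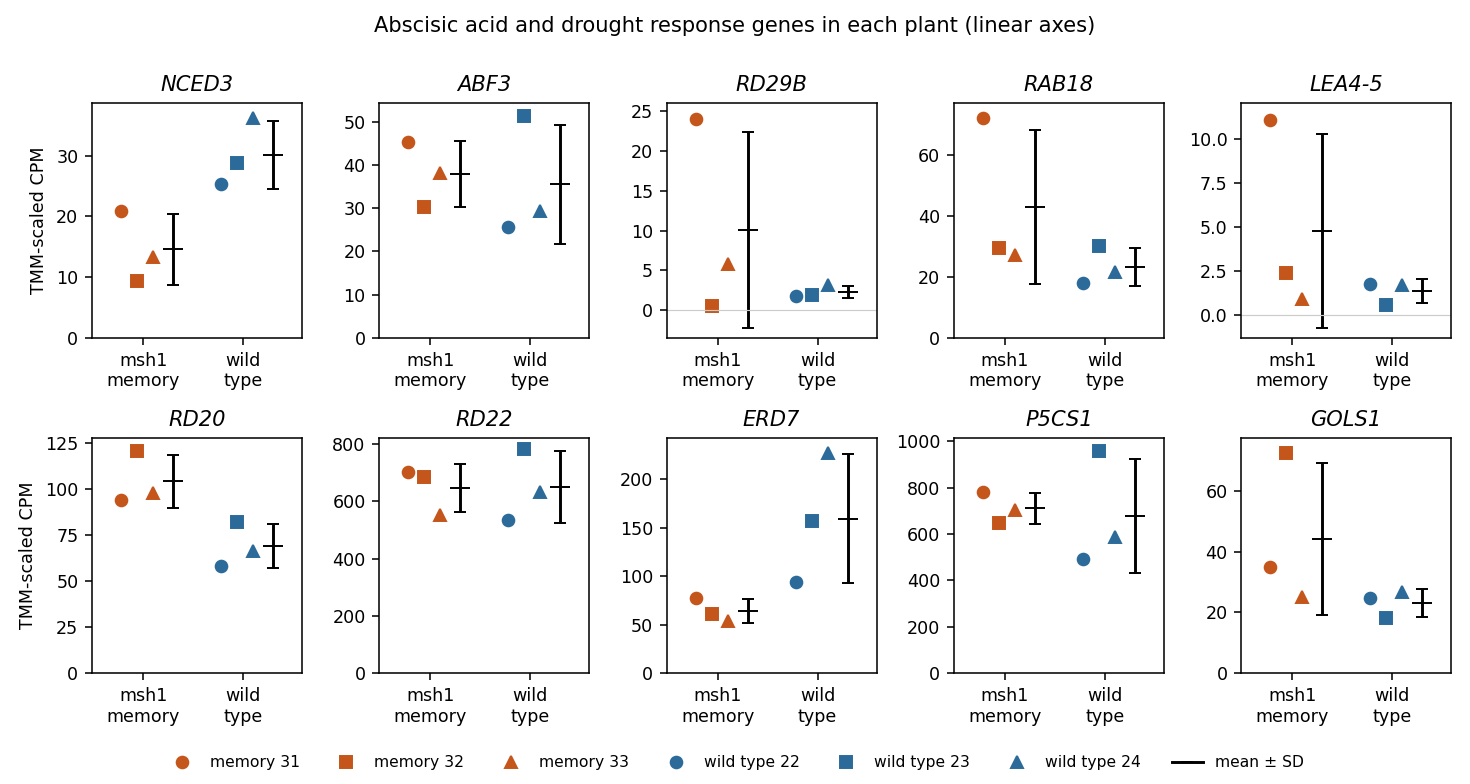
TMM-scaled CPM of each member in each plant, with memory plants 31, 32 and 33 on the left of every panel and wild-type plants 22, 23 and 24 on the right; symbols mark plants and bars the mean ± SD (n = 3 each). NCED3 and ERD7 lie lower and RD20 lies higher in all memory plants, while RD29B, RAB18 and LEA4-5 are each highest in memory plant 31 and GOLS1 in plant 32.

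None of the 9 tested members passed the threshold of 0.05 in either direction, where 1.82% of all tested genes did (0.449% higher and 1.37% lower). With so few members, a count of 0 is near that background. At an unadjusted p under 0.05 there were 3 members, RD20, NCED3 and ERD7, against 12.8% of all tested genes, while DESeq2 called 2 members lower and limma voom none. The same 3 of 9 had groups that do not overlap, against 19.7% of all tested genes. Of these, 1 member (RD20) lay higher in every memory plant, where 9.52% of all tested genes did, and 2 (NCED3 and ERD7) lay lower, where 10.2% did. The median log2 fold change was 0.10 over the members and 0.01 over all tested genes. The spread between plants of 1 group, as edgeR's biological coefficient of variation, was above the all-gene median of 0.172 in 7 of the 9, and reached 0.889 in RD29B.

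**Figure D3:**
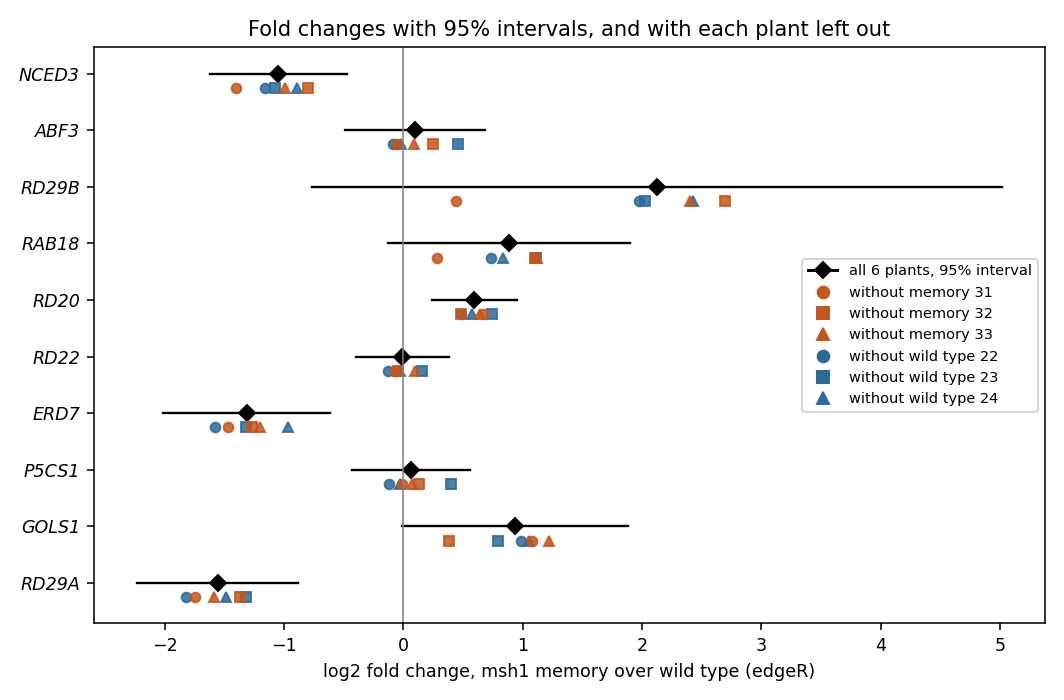
Log2 fold change of the 9 tested members and of RD29A, memory over wild type, with the 95% interval of edgeR's quasi-likelihood fit (diamonds and lines), and below each the value with 1 plant left out. The value for RD29B moves to 0.44 without memory plant 31, and those for RD22, P5CS1 and ABF3 change sign when single plants are left out.

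Per length, the members spanned a wide range of levels. In TPM, which divide counts by exon length and scale each library to the same sum, RD22 averaged 601.5 ± 50.7 in memory plants and 592 ± 86.1 in wild-type plants, and P5CS1 averaged 387 ± 51.5 TPM in memory plants and 358 ± 112 TPM in wild-type plants (SD, n = 3 each). RD20 averaged 160.3 ± 14.98 TPM in memory plants and 104 ± 13.2 TPM in wild-type plants. ERD7 averaged 54.1 ± 9.76 TPM in memory plants and 131 ± 52.8 TPM in wild-type plants. RAB18 averaged 63.6 ± 37.2 TPM in memory plants and 33.65 ± 7.25 TPM in wild-type plants. GOLS1 averaged 49.95 ± 25.04 TPM in memory plants and 26.3 ± 5.95 TPM in wild-type plants, and ABF3 25.1 ± 5.82 TPM in memory plants and 22.7 ± 7.76 TPM in wild-type plants. In memory plants RAB18, ERD7 and GOLS1 were neighbours in this order whose means differed by less than their spread, and so were GOLS1 and ABF3. In wild-type plants ERD7 and RD20 were such neighbours, as were GOLS1, ABF3 and NCED3 (17.4 ± 2.97 TPM). RD29B, LEA4-5 and NCED3 were the lowest in memory plants, at 7.58 ± 9.01, 8.52 ± 9.80 and 8.68 ± 3.55 TPM, and RD29B and LEA4-5 were the lowest in wild-type plants, at 1.66 ± 0.523 and 2.44 ± 1.28 TPM.

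RD29A, the tandem neighbour of RD29B, was called lower in the memory plants. It lies 1185 bases after RD29B on the same strand, and DRE elements take part in its induction by cold and drought. RD29A had 295.5, 173 and 247 CPM in memory plants 31, 32 and 33, against 425, 914 and 765 CPM in wild-type plants 22, 23 and 24, and fell (edgeR log2 fold change -1.56 ± 0.298 SE, adjusted p = 0.0384). That call ended without plant 23, 24, 31, 32 or 33 (adjusted p between 0.0878 and 0.191), with library totals (0.0539) and with limma voom (0.0629). The ratio of RD29B to RD29A was 0.081, 0.0035 and 0.0234 in memory plants 31, 32 and 33, against 0.00423, 0.00212 and 0.00409 in wild-type plants 22, 23 and 24, and the groups overlapped, with plant 32 among the wild-type plants (exact two-sided permutation test, p = 0.3).

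Members were also set against their tested paralogs within each plant, which gave 17 ratios, and in 9 of them the groups did not overlap. The pairs were chosen after the counts were seen, several share a member, and no share over other gene pairs was computed, so the 9 are a description. Of the denominators, RD29A, COR47, ERD10, ABF1, P5CS2, GOLS3 and AT4G35985 were themselves lower in every memory plant than in any wild-type plant. With 3 plants against 3 the exact two-sided permutation test cannot go below p = 0.1, which those 9 reached, and their p adjusted over the 17 was 0.189. GOLS1 over GOLS3, a galactinol synthase gene that cold induces, was 1.33, 3.67 and 1.10 in memory plants 31, 32 and 33, against 0.662, 0.169 and 0.314 in wild-type plants 22, 23 and 24. Thus GOLS1 exceeded GOLS3 in each memory plant and stood below it in each wild-type plant. P5CS1 over P5CS2 was 5.01, 4.38 and 4.69 in memory plants 31, 32 and 33, against 2.87, 4.19 and 3.15 in wild-type plants 22, 23 and 24. ABF3 over ABF1, another factor that binds the ABRE, was 1.25, 0.852 and 1.02 in memory plants 31, 32 and 33, against 0.504, 0.628 and 0.466 in wild-type plants 22, 23 and 24. The groups overlapped for ABF3 over ABF4 (1.80, 1.12 and 1.36 in memory plants 31, 32 and 33, against 0.986, 1.42 and 1.17 in wild-type plants 22, 23 and 24), for ABF3 over ABF2 and for GOLS1 over GOLS2. RAB18 over the dehydrin genes COR47, ERD10 and LTI30 was higher in all memory plants, while over the dehydrin gene ERD14 it was 0.141, 0.0587 and 0.0662 in memory plants 31, 32 and 33, against 0.0431, 0.0613 and 0.0315 in wild-type plants 22, 23 and 24, and the groups overlapped. ERD7 over each of its 3 tested paralogs was lower in all memory plants.

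Around the members, 128 other genes were looked up, called pathway genes here. They include 15 paralogs of single members and genes that cold induces, and were chosen with earlier results of these data known. Of these, 89 could be tested. 2 of the 89 rose and 12 fell, which is 2.25% and 13.5%, against 0.449% and 1.37% of all tested genes. The shares describe the lists as chosen. The median log2 fold change was -0.18. The touch and wound sum was also lower in every memory plant, and its part in these counts was not tested. The counts were 0 higher and 15 lower without plant 22, 6 and 13 without plant 23, 2 and 6 without plant 24, 0 and 0 without plant 31, 0 and 1 without plant 32, and 0 and 0 without plant 33. Among all genes there were 34, 65 and 38 calls without memory plants 31, 32 and 33, and 210, 1019 and 254 calls without wild-type plants 22, 23 and 24, in place of 308.

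Receptors and phosphatases gave no call. Of 14 PYR/PYL receptor genes 7 could be tested, and their log2 fold changes lay between -0.17 and 0.33, with PYL1 having the smallest p (19.4, 22.7 and 15.03 CPM in memory plants 31, 32 and 33, against 19.1, 11.02 and 15.5 CPM in wild-type plants 22, 23 and 24; edgeR adjusted p = 0.62). Of 9 clade A PP2C genes 7 were tested. HAI1, a phosphatase gene that abscisic acid induces strongly, stood at 22.9, 6.44 and 9.71 CPM in memory plants 31, 32 and 33, against 4.32, 4.45 and 7.48 CPM in wild-type plants 22, 23 and 24 (edgeR log2 fold change 1.25 ± 0.465 SE, adjusted p = 0.292). Its highest value was in plant 31, as for RD29B, RAB18 and LEA4-5. Among the 89 tested pathway genes memory plants 31, 32 and 33 were the highest for 16, 8 and 2. Wild-type plants 22, 23 and 24 were the highest for 9, 24 and 30. Over all tested genes the shares were 12.8%, 18.2% and 14.6% for memory plants 31, 32 and 33. They were 12.8%, 23.7% and 18% for wild-type plants 22, 23 and 24.

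Kinases and transcription factors held 5 of the calls. SnRK2.8 rose, with 21.4, 19.3 and 19.9 CPM in memory plants 31, 32 and 33, against 8.997, 11.2 and 7.13 CPM in wild-type plants 22, 23 and 24 (edgeR log2 fold change 1.15 ± 0.212 SE, adjusted p = 0.0179). SnRK2.2, 1 of the 3 kinases that the hormone activates most strongly, fell, with 129, 133 and 122 CPM in memory plants, against 189, 223 and 233 CPM in wild-type plants 22, 23 and 24 (edgeR log2 fold change -0.75 ± 0.14 SE, adjusted p = 0.0192). Of 16 tested transcription factor genes 3 fell and none rose. ANAC019, a NAC factor induced by drought and jasmonate, fell to 8.98, 8.45 and 4.39 CPM in memory plants 31, 32 and 33, against 18.2, 17.8 and 28.0 CPM in wild-type plants 22, 23 and 24 (edgeR adjusted p = 0.0182). DREB2B, a factor that binds the DRE, fell to 1.496, 1.21 and 0.925 CPM in memory plants 31, 32 and 33, against 6.12, 5.03 and 4.53 CPM in wild-type plants 22, 23 and 24 (edgeR adjusted p = 0.0256). Its counts were low, at 7, 6 and 4 reads in these memory plants and 34, 26 and 26 reads in these wild-type plants. ABF1 was the other, named after its values were seen, at 36.1, 35.4 and 37.2 CPM in memory plants 31, 32 and 33, against 51.1, 81.6 and 63.2 CPM in wild-type plants 22, 23 and 24 (edgeR adjusted p = 0.0288).

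On a list of 17 LEA, dehydrin and hydrophilin genes that leaves out the members, all 10 that could be tested had negative fold changes, and 3 fell. Over all tested genes 51.2% had positive fold changes. The list does not hold every gene of these classes. LEA3, off the list and named after its values were seen, stood at 68.8, 57.3 and 72.6 CPM in memory plants 31, 32 and 33, against 19.8, 49.1 and 32.5 CPM in wild-type plants 22, 23 and 24 (edgeR log2 fold change 0.97 ± 0.283 SE, adjusted p = 0.165). COR15B, which encodes a protein of the chloroplast stroma, stood at 69.7, 67.2 and 55.0 CPM in memory plants 31, 32 and 33, against 141, 298 and 291 CPM in wild-type plants 22, 23 and 24 (edgeR adjusted p = 0.00985). KIN2 stood at 104, 84.5 and 106 CPM in memory plants, against 157, 248 and 288.5 CPM in wild-type plants 22, 23 and 24 (adjusted p = 0.0135), and RD29A was the third. The median log2 value was -1.13, while RD29B and RAB18, which encode proteins of these classes, stood at 2.12 and 0.88 and were not called. The 7 genes of the list that were not tested, the seed LEA genes EM1 and EM6 among them, had at most 1.28 CPM in a plant.

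Of 11 other genes named for drying, 5 fell and none rose (median log2 value -0.73). ERD3, a putative methyltransferase gene, stood at 83.8, 95.5 and 79.3 CPM in memory plants 31, 32 and 33, against 166, 199 and 187 CPM in wild-type plants 22, 23 and 24 (edgeR log2 fold change -1.09 ± 0.143 SE, adjusted p = 0.00359). RD19A, a cysteine protease gene, stood at 368, 415 and 357 CPM in memory plants, against 649.8, 778 and 802 CPM in wild-type plants 22, 23 and 24 (edgeR log2 fold change -0.97 ± 0.154 SE, adjusted p = 0.00846). The other calls, ERD6, ERD13 and ERD4, outside the naming rule, had log2 fold changes of -0.84, -0.74 and -0.73. Of 6 tested galactinol and raffinose genes MIPS2, which makes the inositol that galactinol synthases use, rose, with 78.2, 88.5 and 73.3 CPM in memory plants 31, 32 and 33, against 34.5, 42.9 and 52.0 CPM in wild-type plants 22, 23 and 24 (edgeR log2 fold change 0.89 ± 0.166 SE, adjusted p = 0.0187). Of these 6, 3 had positive and 3 negative fold changes. MIPS3, outside that rule, had 11.1 to 12.25 CPM in memory plants and 16.4 to 21.85 CPM in wild-type plants. It did not pass (edgeR log2 fold change -0.72 ± 0.195 SE, adjusted p = 0.0948). GOLS3, also outside that rule, had 26.3, 19.7 and 22.6 CPM in memory plants, against 37.2, 106 and 84.9 CPM in wild-type plants 22, 23 and 24, and did not pass (adjusted p = 0.0885).

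**Figure D4:**
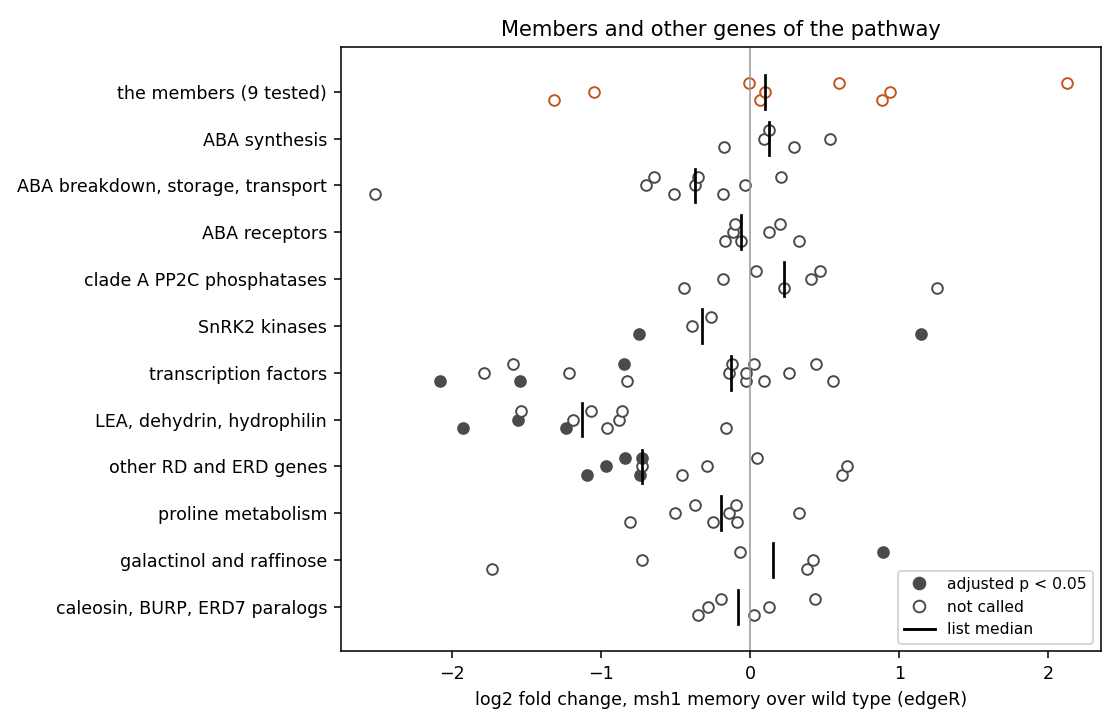
Log2 fold change, memory over wild type, of the 9 tested members (top) and of the tested genes of 11 pathway lists; filled circles passed an edgeR adjusted p of 0.05 and vertical bars are list medians. All 10 tested genes of the LEA, dehydrin and hydrophilin list, which does not hold the members, lie below 0, and no member is filled.

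Markers of single cell types were read beside these values. Guard cell markers (FAMA, MYB60, KAT1, HT1, GASA9) summed to 79.1 to 87.6 CPM in memory plants and 67.2 to 102 CPM in wild-type plants, with none of 5 called. Single markers went opposite ways, with 2 positive and 3 negative fold changes. GASA9 was higher in every memory plant than in any wild-type plant (edgeR log2 fold change 0.56, adjusted p = 0.167). MYB60 was lower in every memory plant (edgeR log2 fold change -0.56, adjusted p = 0.437). Of 10 root markers 4 had no read in any plant, and the sum was 29.7 to 44.2 CPM in memory plants and 24.7 to 40.9 CPM in wild-type plants. The sum hides a difference between plants in PYK10, which had 1 read (0.193 CPM) in wild-type plant 23. PYK10 stood at 20.7 and 17.75 CPM in wild-type plants 22 and 24, and at 10.04 to 21.5 CPM in memory plants. SCR had 23.0 CPM in plant 23 and 19.0 to 27.05 CPM over all plants. Flower organ markers (AP1, AP3, PI, AG, SEP3) summed to 4.92, 9.86 and 11.3 CPM in memory plants 31, 32 and 33, against 2.16, 4.06 and 5.74 CPM in wild-type plants 22, 23 and 24. AP3, too low to test, had 4, 7 and 4 reads in memory plants 31, 32 and 33 and 0 reads in each wild-type plant. For AP1, PI, AG and SEP3 the groups overlapped. The flower sum was lowest among memory plants in plant 31, where RD29B, RAB18 and LEA4-5 were highest. Its part in the members' values was not tested.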

How the data were processed

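Whole-number read counts per locus were deposited by the authors, 1 file per plant, unnormalised; TAIR10 and DESeq2 appear in the submitters' processing notes. Aligner, counter and strand setting: not given in the sources used here. The 279 organelle loci are at 0 in every plant. Libraries were TruSeq RNA v2, 150-bp reads, per the labels. Symbols, positions, exon lengths and promoters came from the RefSeq annotation of TAIR10.1, which matched 32835 of 33602 loci and all 182 loci of the lists.

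The counts went into edgeR 4.0.16 (R 4.3.3): filterByExpr (minimum count 10, minimum total 15), TMM, robust quasi-likelihood fit and two-sided test, Benjamini-Hochberg adjustment over 16928 genes, threshold 0.05. Log2 fold changes are memory minus wild type, and an SE is the fold change over the root of F. Plant numbers are not shared between groups, so nothing was paired; the plants are separate individuals, and no 2 libraries of a group agreed within sampling noise (chi-square per degree of freedom at least 3.12). TPM are counts per exon length. The fits were tested on simulated data. Alternatives used other scalings and filters, DESeq2 1.42.0, limma 3.58.1 (voom), no robust estimation, a threshold of 0.01 and leaving out each plant.

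The members and lists were chosen with earlier results of these data known, and the paralog pairs, promoter windows and motifs after the counts were seen. All members are named, and so is RD29A. From each pathway list up to 2 called genes with the smallest p are named, or 1 where none was called. Genes named outside this rule are CYP707A3, ABF1, ERD6, ERD13, ERD4, MIPS3, GOLS3, LEA3 and those given as paralogs or overlapping neighbours.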

Additional observations from a re-analysis of the deposited data

How the results depend on the processing

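For 9 tested members and 15 alternatives there were 135 log2 fold changes, of which 118 kept their sign and their side of the threshold, 7 passed it where the reported fit did not, and 10 changed sign. The threshold of 0.01 reuses the reported fit, so its 9 values among the 118 could not have moved. All sign changes were in RD22, P5CS1 and ABF3, whose reported values lie near 0. RD22 was 0.064 with library totals and 0.025 with upper-quartile scaling, and -0.13 to 0.152 over the fits without 1 plant; P5CS1 lay between -0.122 and 0.40 and ABF3 between -0.089 and 0.46 over those fits. Members called higher were 1 (RD20) with library totals and 0 to 1 without single plants. Members called lower were 1 (NCED3) with no filter on low counts, 2 (NCED3 and ERD7) with DESeq2, 1 (ERD7) without robust estimation and 0 to 1 without single plants. Among pathway genes, DESeq2 called 20 lower; at a threshold of 0.01 there were 0 higher and 3 lower, and without single plants 0 to 6 higher and 0 to 15 lower. All tested genes gave 308 calls, 523 with DESeq2, 98 at the threshold of 0.01 and 34 to 1019 without single plants. With library totals the split of all calls was 98 higher and 173 lower, against 76 and 232. The cause of these shifts was not tested. No paired analysis was possible because the groups share no plant numbers. RD29B and LEA4-5 rest on 3 to 112 reads in a plant, which limits their precision.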

Other observations

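The 5 tested non-member genes above 5 CPM whose log2 CPM followed the members' mean standardised profile most closely over the 6 plants were AT2G07180, AT1G21400, LSF2, AT1G66070 and FBW2, with Pearson r from 0.968 to 0.982 among 14422 candidates. This is a description, since genes were ranked by it, and none of the 5 was called (edgeR adjusted p from 0.714 to 0.942). In the 1000 bases before the gene start, 9 of 10 members held the ABRE core, against 54.6% of all promoters of that length, and 7 held the DRE core, against 37.3%. The evening element AAATATCT, searched on both strands, was found there in RAB18, RD22, P5CS1 and NCED3, where 15.4% of all promoters hold it.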
